A study of Mus musculus with 36 samples.

Results

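The transcripts of fibronectin and 6 further matrix glycoproteins made by myeloid cells were followed through 36 sequenced libraries of mouse monocytes and macrophages. The 7 genes (Fn1, Thbs1, Vcan, Emilin2, Tgfbi, Ecm1 and Prg4) were taken by symbol, and all 7 were found among the 24421 genes of each count table. They were chosen with earlier results of these data known, the aortic values of Fn1 among them. Those values, and the differences between populations, are therefore given as a description with no p. Fn1 stays in the counts of members that passed, and nothing is read from it there.

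All libraries came from Apoe ko mice. Without apolipoprotein E, remnant lipoproteins stay in the blood and plaques form in the arteries, faster on a diet rich in cholesterol. The 3 sorted populations were macrophages from collagenase-digested whole aortas, macrophages from peritoneal lavage, and monocytes from blood and spleen. Each was taken on chow diet (baseline), after 1 month of high cholesterol diet (early atheroma) and after 6 months of that diet (advanced atheroma), with 4 libraries in each of the 9 groups. The question behind the design is how transcription in these cells, inside and outside the lesion, differs between stages of atheroma. Strain, sex and age are not given in the sources used here, and all groups, controls included, carry the Apoe deficiency. Whether the 4 libraries of a group stem from different mice is not given, and the p-values then measure only the spread between libraries, which may be technical. Cells were separated by flow cytometry, for the aorta after an enzymatic digest of the vessel.

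Matrix glycoproteins are secreted proteins that cells assemble into, or attach to, the scaffold around them. Fibroblasts and smooth muscle cells make most of this scaffold in the artery wall, and monocytes and macrophages add a smaller set of adhesive and signalling glycoproteins. In atherosclerotic intima, fibronectin and versican are known as early components of the altered matrix, and versican binds lipoproteins there.

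The adhesive glycoproteins were Fn1, Tgfbi and Emilin2. Fn1 (gene ID 14268, chr1:71585473-71653280, minus strand) encodes fibronectin, which integrins stretch into fibrils that carry other matrix proteins. Tgfbi (21810, chr13:56609586-56639359, plus strand) encodes a TGF-beta-induced protein that binds collagens and integrins. Emilin2 (246707, chr17:71252172-71311556, minus strand) encodes a glycoprotein of elastin microfibrils. Thbs1 (21825, chr2:118111876-118127133, plus strand) encodes thrombospondin-1, a matricellular protein that binds CD36 and CD47, restrains vessel growth and can activate latent TGF-beta. The proteoglycans were Vcan (13003, chr13:89655309-89743027, minus strand), which encodes versican, a large hyaluronan-binding chondroitin sulphate proteoglycan, and Prg4 (96875, chr1:150449412-150466221, minus strand), which encodes lubricin, the lubricant of joints. Ecm1 (13601, chr3:95734147-95739876, minus strand) encodes a secreted glycoprotein that binds perlecan and other matrix proteins. Each interval spans the gene from first to last exon, introns included, in the mm10 assembly (RefSeq, GRCm38.p6).

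Values are deposited read counts per gene, scaled to the library's total as CPM (counts per 1000000 counted reads). Depth differed with stage: 0.943 to 2.63 M counted reads in the 24 early and advanced libraries, against 5.28 to 14.8 M in the 12 baseline ones, so diet and depth cannot be told apart. In the aorta the deeper libraries did not count more genes. Aortic baseline libraries 1 to 4 held 10163, 10102, 7790 and 7565 genes with a read, and the advanced ones 9216, 12663, 13293 and 12808. This limits every aortic rise against baseline given below. A few libraries stood apart from their groups: peritoneal early libraries 1 and 2, monocyte advanced library 3, aortic advanced library 1, and baseline libraries 3 and 4 of the aorta. Where a call given below ends without them, this is said beside it. All 6 macrophage markers, such as Csf1r and Adgre1, were counted in every group. Spread between libraries beyond counting error, as a biological coefficient of variation, came to 110% in aortic macrophages, 21.2% in peritoneal macrophages and 19.1% in monocytes. In these bulk samples, fewer cells of a type and less RNA per cell cannot be told apart.

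The populations differed widely in these transcripts. Together the 7 genes took 0.195 to 0.741% of the reads of an aortic library, 3.98 to 8.93% of a peritoneal library and 0.311 to 1.04% of a monocyte library. Fn1 gave the most reads of the 7 in every library except aortic early libraries 2 and 3, where Tgfbi gave more, and it made up 63.1 to 76.0% of the 7 genes' reads in peritoneal macrophages. The lowest, median and highest Fn1 level was 647, 2114 and 5715 CPM over the 12 aortic libraries, 29879, 47068 and 65784 CPM over the 12 peritoneal ones and 1788, 3008 and 7354 CPM over the 12 monocyte ones. Every peritoneal library lay above every aortic and every monocyte library, while the aortic and monocyte ranges overlapped.

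**Figure D1:**
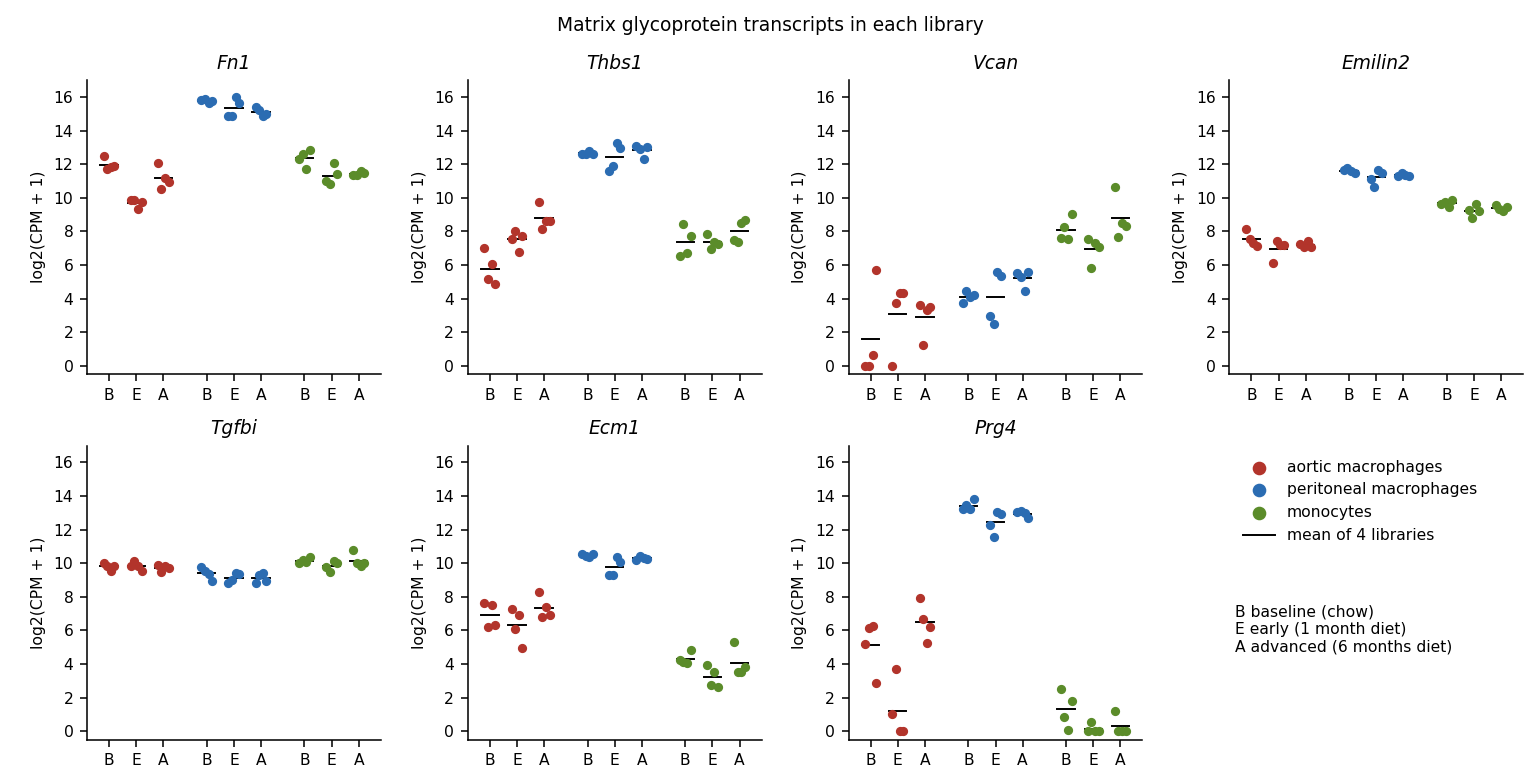
Level of each transcript as log2(CPM + 1) in every library (points), with the mean of 4 libraries (bars), by population and stage. Fn1, Thbs1, Emilin2, Ecm1 and Prg4 were highest in peritoneal macrophages, Vcan was highest in monocytes, and Tgfbi lay between 451 and 1746 CPM in all 36 libraries.

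Prg4 set peritoneal macrophages far apart from both other populations. Its lowest, median and highest level was 0, 35.9 and 244 CPM in aortic macrophages, 2981, 8392 and 14609 CPM in peritoneal macrophages and 0, 0.0338 and 4.65 CPM in monocytes, where it had 93 counts over 12 libraries and 6 libraries had none. Mesothelial cells line the peritoneal cavity, and their 5 markers Msln, Upk3b, Krt19, Lrrn4 and Wt1 were at 0 in all early and advanced peritoneal libraries. At baseline 2 of the 5 were counted in peritoneal libraries, with a summed level of 0 to 0.108 CPM.

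Thbs1, Ecm1 and Emilin2 had the same leading population. Thbs1 had a lowest, median and highest level of 28.0, 197 and 851 CPM in aortic macrophages, 3074, 6667 and 9884 CPM in peritoneal macrophages and 93.5, 173 and 408 CPM in monocytes. Ecm1 had 30.6, 119 and 316 CPM in aortic macrophages, 629, 1295 and 1522 CPM in peritoneal macrophages and 5.31, 13.8 and 39.0 CPM in monocytes. The aortic and monocyte ranges of both genes overlapped, for Ecm1 only where the lowest aortic library met the highest monocyte library. Emilin2 had 68.1, 149 and 288 CPM in aortic macrophages, 1609, 2856 and 3434 CPM in peritoneal macrophages and 439, 697 and 938 CPM in monocytes, with no overlap between any pair of populations.

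Vcan ran the other way. Its lowest, median and highest level was 0, 9.64 and 50.5 CPM in aortic macrophages, 4.69, 20.8 and 47.9 CPM in peritoneal macrophages and 54.8, 198 and 1616 CPM in monocytes. In human blood, versican transcript is known as a mark of classical monocytes. The lowest monocyte library lay just above the highest aortic and peritoneal ones, and with totals rescaled by TMM (edgeR's correction for library composition) the Vcan ranges of monocytes overlapped those of both macrophage populations. Tgfbi was the most even of the 7, with 720.1, 912 and 1115 CPM in aortic macrophages, 451, 637 and 891 CPM in peritoneal macrophages and 700.5, 1040.3 and 1746 CPM in monocytes, and all 3 ranges overlapped.

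Counted over all 12 libraries of each population, 2 of the 7 transcripts (Vcan and Emilin2) were lower in aortic macrophages than in monocytes without overlap, where 3.73% of the 18168 genes with a count had ranges apart in either direction. Against peritoneal macrophages 5 of 7 were lower in the aorta without overlap, where 2.61% of all genes were apart. Peritoneal macrophages exceeded monocytes without overlap in 5 of 7 and lay below them in 1 (Vcan), where 10.5% of all genes were apart. These counts follow from how the genes were picked and show nothing particular to them. The mean ratio of peritoneal macrophages to monocytes was 12.4 for Fn1, 31.6 for Thbs1, 77.4 for Ecm1 and 3.91 for Emilin2. Fibronectin in the peritoneum was 18.2 times its aortic mean.

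Levels of different genes were compared only per kilobase of exon, as CPM divided by the length of the gene's merged GENCODE exons. On that scale peritoneal macrophages held most fibronectin, with a mean of 3891 CPM per kb, then 1964 for Prg4, 1098 for Thbs1, 499 for Emilin2, 477 for Ecm1, 162 for Tgfbi and 1.83 for Vcan. In the 2 other populations the order of fibronectin and Tgfbi depended on the stage. In aortic macrophages Fn1 held 288 to 489 CPM per kb in baseline libraries, 55.3 to 81.1 in early ones and 128 to 366 in advanced ones. Tgfbi held 199.9 to 277 CPM per kb in baseline libraries, 197 to 296 in early ones and 191 to 252 in advanced ones. Fibronectin thus lay above Tgfbi at baseline and below it early, without overlap, and the 2 overlapped at the advanced stage. In monocytes Fn1 averaged 466 CPM per kb in baseline, 233 in early and 239 in advanced libraries, and Tgfbi averaged 305, 248 and 312 at these stages. Averaged over the 12 libraries, the others were Ecm1 (53.3 CPM per kb), Thbs1 (40.4), Emilin2 (28.5), Prg4 (12.7) and Vcan (0.767) in the aorta. In monocytes they were Emilin2 (128 CPM per kb), Thbs1 (34.8), Vcan (24.4), Ecm1 (6.16) and Prg4 (0.191).

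The promoter windows of Ecm1, Vcan and Tgfbi are shown because these 3 genes had different population patterns, with Ecm1 led by peritoneal macrophages, Vcan by monocytes and Tgfbi by none. RefSeq's promoter table (GRCm38.p6) matched 4 of the 7 genes (Vcan, Emilin2, Tgfbi and Ecm1), and the other 3 are Fn1, Thbs1 and Prg4. Each line gives the 250 bases before the transcript start that the table uses, 5′ to 3′ on the gene's strand. For Ecm1 and Vcan that start lies inside the gene interval given above, and for Tgfbi it is the interval's first base. The lines show motif matches on either strand in capitals, for Ecm1 at chr3:95739570-95739819, minus strand, Vcan at chr13:89742513-89742762, minus strand and Tgfbi at chr13:56609336-56609585, plus strand.
Ecm1: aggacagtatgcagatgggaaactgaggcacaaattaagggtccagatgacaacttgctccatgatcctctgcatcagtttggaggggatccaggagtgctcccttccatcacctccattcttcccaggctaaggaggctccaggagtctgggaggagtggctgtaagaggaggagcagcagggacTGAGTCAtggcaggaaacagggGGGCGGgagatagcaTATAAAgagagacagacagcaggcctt
Vcan: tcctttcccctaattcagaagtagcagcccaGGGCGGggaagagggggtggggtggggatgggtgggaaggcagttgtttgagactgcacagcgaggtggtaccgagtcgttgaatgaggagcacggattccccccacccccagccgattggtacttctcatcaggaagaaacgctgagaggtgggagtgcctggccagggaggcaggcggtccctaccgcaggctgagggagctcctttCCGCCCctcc
Tgfbi: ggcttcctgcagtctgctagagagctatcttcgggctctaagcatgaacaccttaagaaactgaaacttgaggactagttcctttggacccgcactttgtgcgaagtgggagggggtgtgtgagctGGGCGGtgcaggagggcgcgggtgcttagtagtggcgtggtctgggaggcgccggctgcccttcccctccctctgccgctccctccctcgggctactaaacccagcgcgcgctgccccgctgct
Both strands were searched for the TATA box with the letters TATAAA, for AP-1 sites with the letters TGANTCA, and for the GC box with the letters GGGCGG. The GATA factors' letters AGATAA and the letters GAGGAA, the core that the myeloid factor PU.1 reads, were searched too, and no 2 matches overlapped. Shares are of 32851 windows of the same length from the promoter table, with a chromosome left out. The Ecm1 window held the TATA box letters 27 bases before the start (12.4% of windows), an AP-1 match at 64 bases (6.75% of windows) and a GC box at 42 bases (32.7% of windows). The Vcan window held GC boxes at 219 and 10 bases and the Tgfbi window held a GC box at 124 bases, with none of the other motifs. Of the same 32851 windows, 9.99% hold the GATA letters and 23.3% the PU.1 core. A match describes the letters of the window and is not a bound site.

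In aortic macrophages, fibronectin transcript was lowest at the early stage. Fn1 had 5715, 3360.5, 3679 and 3783 CPM in the 4 baseline libraries, 922, 948, 647 and 850.0 CPM in the early ones and 4278, 1496, 2294 and 1934 CPM in the advanced ones. All 4 early libraries lay below the other 8, while advanced and baseline libraries overlapped. The early mean was 842 ± 136 CPM, against 4134 ± 1069 CPM at baseline (SD, n = 4 each), a ratio of 0.204. The advanced mean was 2501 ± 1229 CPM (SD, n = 4), 2.97 times the early one. The fitted log2 fold changes (edgeR, ± SE) were -2.17 ± 0.28 for early against baseline, 1.56 ± 0.27 for advanced against early and -0.61 ± 0.27 for advanced against baseline. Advanced library 1, among those that stood apart, was the highest of its group, and without it advanced against early was 1.19 ± 0.23.

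Fibronectin's share of the 7 genes' reads followed the same course. Baseline libraries gave 72.6 to 77.2%, early libraries 33.2 to 42.5% and advanced libraries 52.6 to 62.9%, with no overlap between the stages. The 7 genes together took 0.463 to 0.741% of aortic reads in baseline libraries, 0.195 to 0.259% in early and 0.285 to 0.680% in advanced ones. Fibroblasts make fibronectin in the artery wall, and all 7 fibroblast markers, such as Dcn and Col1a2, were counted in each aortic group. Their summed level was 8.89 to 287 CPM in baseline, 483 to 1027 CPM in early and 139 to 379 CPM in advanced libraries. The 5 classical monocyte markers summed to 502 to 856 CPM, 223 to 415 CPM and 285 to 681 CPM at these stages. Of these only Ccr2 (means of 626, 267 and 405 CPM) and the scarce Ly6c2 were lowest early. The 4 resident arterial macrophage markers summed to 2990 to 4790 CPM, 3758 to 4945 CPM and 1992 to 3324 CPM. The part of these cells in the Fn1 values was not tested.

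**Figure D2:**
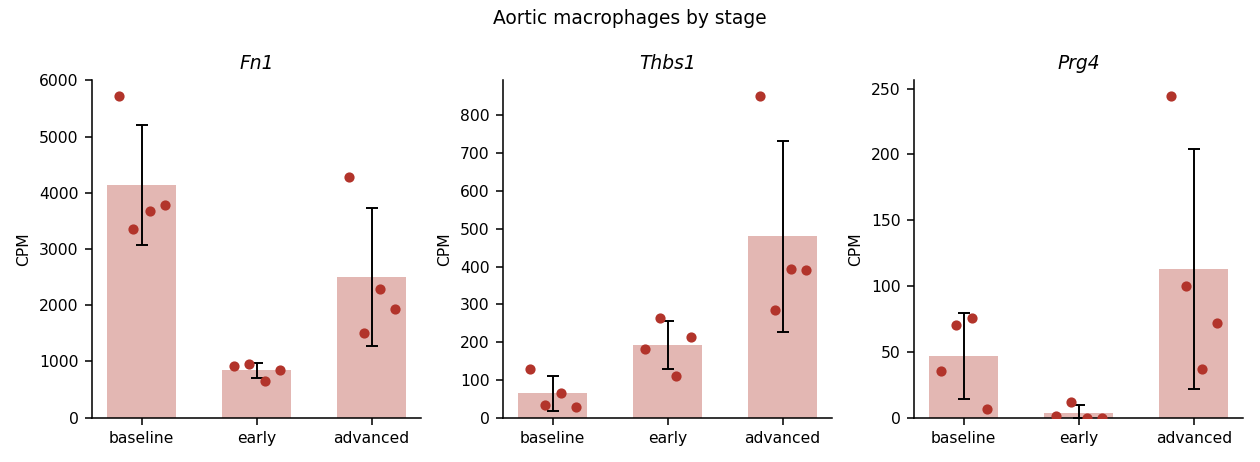
CPM of Fn1, Thbs1 and Prg4 in aortic macrophages at baseline, early and advanced stage: points are libraries, bars are means and error bars are SD (n = 4; cut off at 0). The 4 early Fn1 values lie between 647 and 948 CPM, and the 4 advanced Thbs1 values lie above all others of that gene.

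Thrombospondin-1 followed another course in the same libraries. Thbs1 had 129, 34.4, 65.5 and 28.0 CPM at baseline, 182, 263, 109.6 and 212 CPM early and 851, 286, 392 and 391 CPM at the advanced stage. Each advanced library exceeded each early and baseline library, and the early and baseline ranges overlapped only through baseline library 1. Between the advanced stage (479.9 ± 252 CPM) and baseline (64.3 ± 46.3 CPM; SD, n = 4 each) Thbs1 rose, with a log2 fold change of 3.04 ± 0.47 and an adjusted p of 0.00271 (edgeR's quasi-likelihood test, Benjamini-Hochberg over all genes). It was 1 of 7 members past the threshold of 0.05 in that comparison, where 0.585% of the 9920 genes tested passed. The call held in all 21 alternatives, with log2 fold changes of 2.32 to 3.59 and adjusted p up to 0.0276.

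The intermediate steps of Thbs1 did not pass. Early against baseline gave 1.72 ± 0.45 (edgeR adjusted p = 0.107), which passed without the filter on low counts, in DESeq2, in a fit of all 36 libraries and without baseline library 1. Advanced against early gave 1.32 ± 0.45 (edgeR adjusted p = 0.915) and passed in limma-voom alone (adjusted p = 0.0399). Platelets carry thrombospondin-1, and of 6 platelet markers 3 were at 0 in the advanced aortic libraries (Gp9, Gp1bb and Treml1) and 3 at baseline (Gp1bb, Gp6 and Treml1), with a summed level of 0 to 5.41 CPM at the advanced stage and 0 to 33.6 CPM at baseline.

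Lubricin was scarce and uneven in the aorta. Prg4 had 35.1, 70.1, 75.8 and 6.43 CPM at baseline, 1.02, 12.2, 0 and 0 CPM early and 244, 100.3, 36.6 and 71.7 CPM at the advanced stage. The early libraries lay below all advanced ones and overlapped the lowest baseline one, and 2 early libraries had no read. Neither step passed the test with all libraries (edgeR log2 fold change -3.83 ± 1.23, adjusted p = 0.181, for early against baseline, and 5.25 ± 1.31, adjusted p = 0.367, for advanced against early), and early against baseline passed without early library 2 (adjusted p = 0.0479). Both steps passed in edgeR without the filter on low counts, in DESeq2 and in the fit of all 36 libraries, and the second also in limma-voom. Prg4 was highest in peritoneal macrophages here. Markers of large peritoneal macrophages had summed levels of 78.8 to 217 CPM, 99.9 to 138 CPM and 106 to 513 CPM at the 3 stages in the aorta. Of these markers Timd4 fell over the stages (means of 134.1, 113.8 and 80.1 CPM). Gata6 (0, 2.13 and 2.29 CPM) and Icam2 (0.03, 0.191 and 8.5 CPM) were lowest at baseline. Gata6 and Naip1 were at 0 at baseline, Lrg1 at 0 early and all 8 were counted at the advanced stage. The part of large peritoneal macrophages in the Prg4 values was not tested.

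The other 4 transcripts gave no aortic call, in edgeR or in any alternative run. Tgfbi ranged over 720.1 to 1115 CPM, Emilin2 over 68.1 to 288 CPM and Ecm1 over 30.6 to 316 CPM, with overlapping stages throughout. Vcan had 0, 0, 0.568 and 50.5 CPM at baseline, 0, 12.2, 19.0 and 19.0 CPM early and 11.2, 1.40, 9.16 and 10.1 CPM at the advanced stage, and its 1 high value, in baseline library 4, belongs to a library that stood apart. Of the 7 members, 1 (Fn1, lower) passed for early against baseline, where 0.373% of all genes did and 0.0605% were lower. For advanced against early, 1 (Fn1, higher) passed, where 0.0403% of all genes did and 0.0302% were higher. Fn1 was chosen on these contrasts, so nothing is read from those 2 counts.

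In monocytes, fibronectin transcript was lower at both diet stages than on chow. Fn1 had 4991, 6145, 3303 and 7354 CPM at baseline, 2019, 1788, 4318 and 2784 CPM early and 2579, 2584, 3112 and 2903 CPM at the advanced stage. All advanced libraries lay below all baseline ones, and early library 3 reached the baseline range. Fn1 fell at the early stage (2727 ± 1142 CPM) against baseline (5448 ± 1725 CPM; SD, n = 4 each), with a log2 fold change of -0.98 ± 0.27 (edgeR adjusted p = 0.0318). It also fell at the advanced stage (2794 ± 260.5 CPM) against baseline, with a log2 fold change of -0.93 ± 0.27 (edgeR adjusted p = 0.0272). Advanced against early gave 0.05 ± 0.27 (edgeR adjusted p = 0.947).

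Fn1 was the 1 of 6 members tested in monocytes that passed in each of these comparisons with baseline, where 10.8% of 9465 genes passed for the early stage (5.08% lower) and 19.0% for the advanced stage (9.75% lower), so the count of members called was near the background. The early call was lost without baseline library 1, 2 or 4 or early library 1, 2 or 4 (adjusted p up to 0.103), and the advanced call without baseline library 2 or 4 or advanced library 1, 2 or 4 (up to 0.0838). Both held without advanced library 3, which stood apart. In the fit of all 36 libraries neither passed (adjusted p = 0.345 and 0.33). Cell markers moved with these groups. All 6 neutrophil markers in the tables, S100a8 and S100a9 among them, were counted at each stage, with summed levels of 228 to 642 CPM in baseline, 3374 to 12964 CPM in early and 4661 to 36424 CPM in advanced libraries. Mean S100a8, S100a9, Camp and Ngp were higher at both diet stages than at baseline. Mean Mmp8 and Retnlg were lower early (44.5 and 10.1 CPM) than at baseline (90.2 and 31.7 CPM), and reached 102.8 and 210.6 CPM at the advanced stage. All 5 nonclassical monocyte markers summed to 2966 to 4104 CPM, 2425 to 2760.3 CPM and 1154 to 2563 CPM at these stages, and all 5 classical markers to 3312 to 8847 CPM, 3523 to 5416 CPM and 4591 to 7322 CPM. The T cell markers summed to 8.06 to 22.4 CPM, 15.1 to 72.7 CPM and 2.37 to 5.30 CPM, and the B cell markers to at most 37.0 CPM, 124 CPM and 18.5 CPM. The part of these cells in the Fn1 values was not tested.

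Versican was the most variable of the 6 transcripts tested in monocytes. Vcan had 193, 301, 184 and 527 CPM at baseline, 184, 54.8, 161 and 136 CPM early and 1616, 204, 361 and 320.3 CPM at the advanced stage. Every advanced library exceeded every early one, and baseline overlapped both. Advanced against early gave 2.26 ± 0.59 (edgeR adjusted p = 0.0592), and 1.18 ± 0.42 without advanced library 1 (adjusted p = 0.172). None of the 6 members tested passed in that comparison with edgeR, where 2.07% of all genes did. DESeq2, edgeR without the filter on low counts, and counts thinned to equal depth called Vcan, as did edgeR without baseline library 4 (adjusted p = 0.0339), and limma-voom called none.

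**Figure D3:**
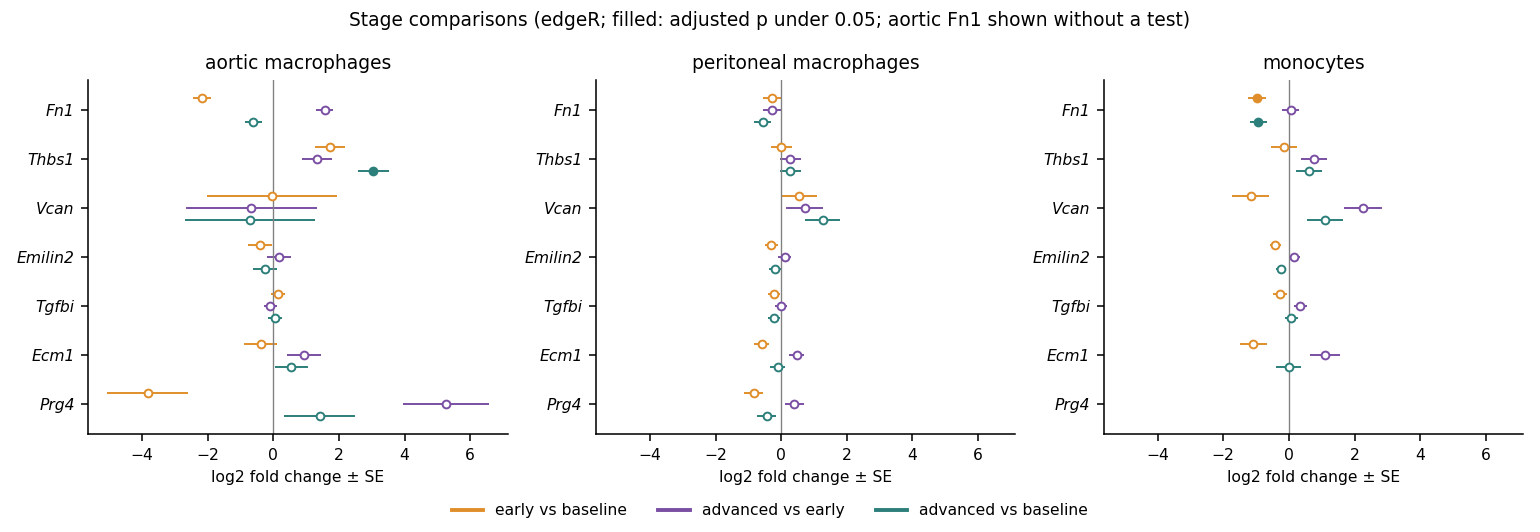
Log2 fold changes (± SE, edgeR) of the 7 transcripts between stages in each population (4 libraries a stage), filled where the adjusted p was under 0.05 and drawn open otherwise or where no test is given (aortic Fn1). Thbs1 in the aorta at the advanced stage against baseline and Fn1 in monocytes at both diet stages against baseline are filled. Prg4 was not tested in monocytes.

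Advanced library 1 also held the highest monocyte levels of Tgfbi and Ecm1. Tgfbi had 1049, 1184, 1062 and 1300.5 CPM at baseline, 886, 700.5, 1144 and 1019 CPM early and 1746, 1023, 901 and 1031 CPM at the advanced stage. Ecm1 had 17.6, 16.4, 15.8 and 27.0 CPM at baseline, 14.6, 5.67, 10.7 and 5.31 CPM early and 39.0, 10.6, 10.7 and 13.1 CPM at the advanced stage, and every early library lay below every baseline one without passing the test (-1.08 ± 0.42, edgeR adjusted p = 0.113). That comparison passed in 1 of 21 alternatives, without advanced library 1 (edgeR adjusted p = 0.0404). Stages overlapped for Tgfbi. Thbs1 (93.5 to 408 CPM) and Emilin2 (439 to 938 CPM) gave no call in monocytes with all libraries, and their stages overlapped. Emilin2 passed, lower, for early against baseline in 1 of 21 alternatives, without early library 3 (-0.57 ± 0.15, edgeR adjusted p = 0.0237).

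In peritoneal macrophages none of the 7 transcripts passed in any of the 3 stage comparisons (0 of 21 tests, 4 at an unadjusted p under 0.05; edgeR). The share of all genes that passed was 1.88% for early against baseline, 1.32% for advanced against early and 0.898% for advanced against baseline. DESeq2 called none of the 7 either. limma-voom with quality weights called none, 1 (Fn1) and 2 (Fn1 and Vcan) of them in the same order.

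The early peritoneal libraries fell into 2 pairs. Fn1 had 58491, 59361, 51885 and 54599.6 CPM at baseline, 29879, 30226, 65784 and 51386 CPM early and 42749, 37605, 30559.8 and 33069 CPM at the advanced stage. Early libraries 1 and 2 lay below all baseline libraries, early library 3 was the highest of the 12, and all advanced libraries lay below all baseline ones. Prg4 had 9479, 11247, 9495 and 14609 CPM at baseline, 4988, 2981, 8428 and 7888 CPM early and 8356, 8703, 8114 and 6605 CPM at the advanced stage, with every early and every advanced library below every baseline one. It did not pass the test (early against baseline -0.84 ± 0.29, adjusted p = 0.133, and advanced against baseline -0.44 ± 0.29, adjusted p = 0.51; edgeR).

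The same split ran through the other members. Thbs1 had 3074, 3828, 9884 and 8000.4 CPM in the early libraries, against 6330.4, 6262, 7004 and 6154 CPM at baseline. Ecm1 had 629, 636, 1348 and 1056 CPM early, against 1522, 1402, 1316 and 1494 CPM at baseline. Vcan had 6.80, 4.69, 46.5 and 40.3 CPM early, against 12.3, 20.9, 16.1 and 17.7 CPM at baseline. In each case early libraries 1 and 2 were the lowest of all 12, and for Thbs1 and Vcan early libraries 3 and 4 exceeded all baseline libraries. Emilin2 (2205, 1609, 3174 and 2879 CPM early, against 3254, 3434, 3054 and 2847 CPM at baseline) showed the same pair below the rest, whereas Tgfbi (455, 505, 671 and 657 CPM early, against 891, 739, 646 and 495 CPM at baseline) did not. Ecm1 passed, lower, for early against baseline in 1 of 21 alternatives, without early library 3 (-0.87 ± 0.20, edgeR adjusted p = 0.0264).

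Cell markers differed along the same split. All 8 markers of large peritoneal macrophages, Gata6 and Timd4 among them, were counted at each stage, with summed levels of 2046, 1107, 3344 and 3053 CPM in early libraries 1 to 4 and 3449 to 3932 CPM at baseline. All 5 markers of small peritoneal macrophages, such as Irf4 and Retnla, summed to 5397, 14459.6, 654 and 601 CPM in early libraries 1 to 4 and 164 to 712 CPM at baseline. The part of the mix of these cells in the values was not tested.

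**Figure D4:**
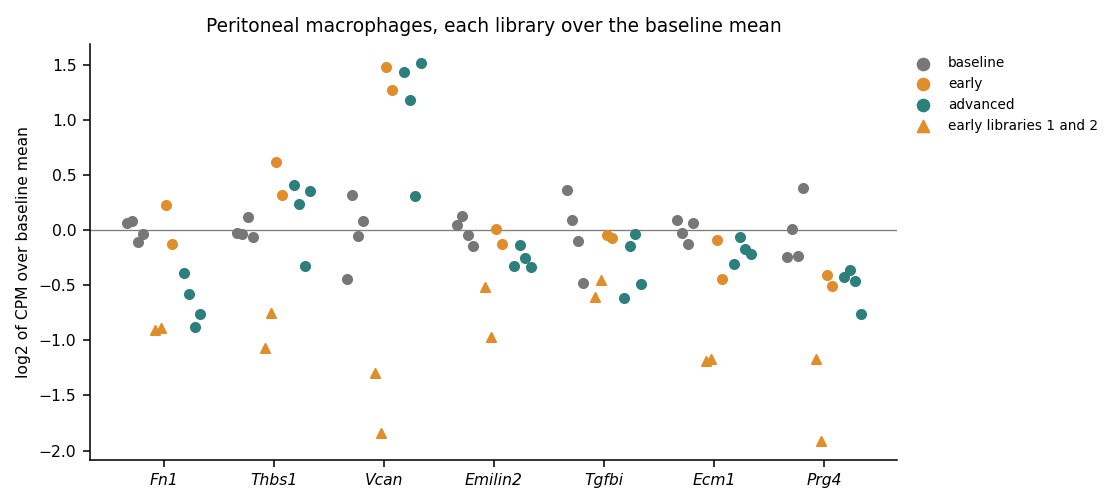
Log2 of each peritoneal library's CPM over the mean of the 4 baseline libraries, for the 7 transcripts, with early libraries 1 and 2 as triangles. For Fn1 the ratio to the baseline mean was 0.533, 0.539, 1.17 and 0.916 in early libraries 1 to 4 and 0.762, 0.671, 0.545 and 0.590 in advanced libraries 1 to 4.

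Without early libraries 1 and 2, Fn1 fell at the advanced stage, with log2 fold changes of -0.73 ± 0.14 against the early stage (edgeR adjusted p = 0.0217) and -0.57 ± 0.12 against baseline (adjusted p = 0.00952). With them the same log2 fold changes were -0.28 ± 0.26 (adjusted p = 0.583) and -0.56 ± 0.26 (adjusted p = 0.307). Vcan, with 45.3, 37.8, 20.7 and 47.9 CPM at the advanced stage, rose without those libraries, by 1.47 ± 0.29 early against baseline (edgeR adjusted p = 0.0347) and by 1.27 ± 0.23 advanced against baseline (adjusted p = 0.00607). With them Vcan gave 0.54 ± 0.55 (adjusted p = 0.597) and 1.27 ± 0.53 (adjusted p = 0.255). Fibronectin and versican were both lowest in early libraries 1 and 2. Their changes for advanced against baseline had opposite signs with and without these libraries, and passed in edgeR only without them. These libraries were singled out with earlier results of these data known. Leaving out the lowest early values raises the early mean of both genes, so the p-values without them are a description and support nothing.

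**Figure D5:**
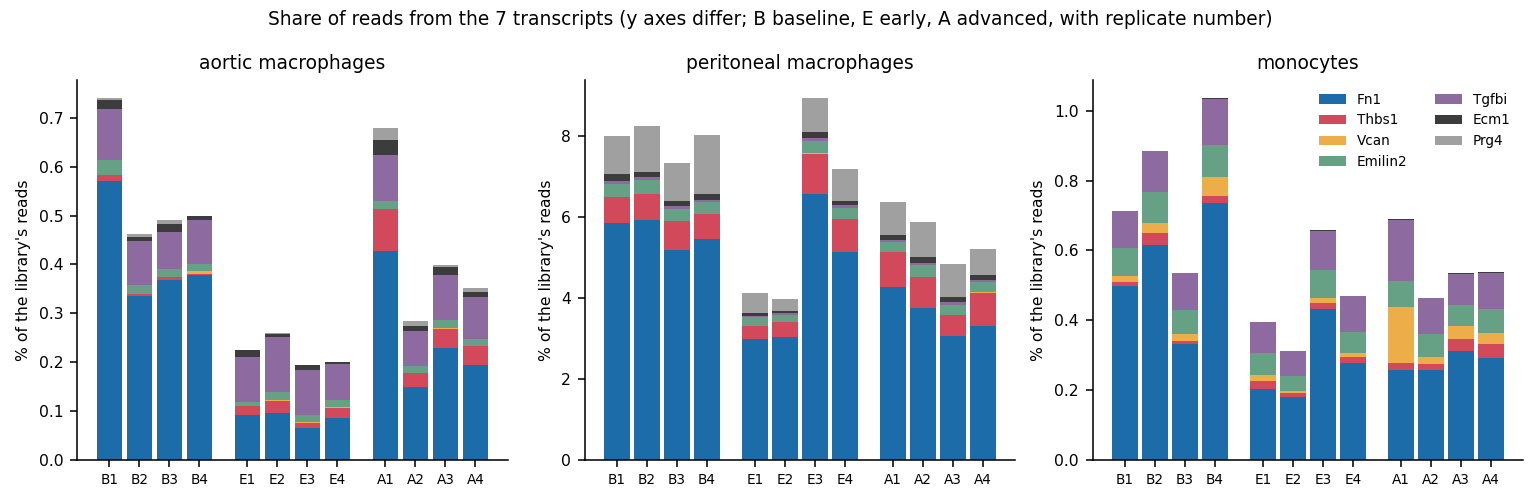
Share of each library's reads that came from the 7 transcripts, stacked by gene, for the 3 populations (the y axes differ), with libraries ordered by stage and replicate number. Fn1 was the largest part of every peritoneal bar, and the whole bar ranged over 3.98 to 8.93% in peritoneal macrophages.

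Whether the stages acted differently on peritoneal macrophages and monocytes was tested in 1 fit of their 24 libraries. Of 21 member tests 0 passed and 0 had an unadjusted p under 0.05 (edgeR), where 2.78, 1.25 and 2.3% of all genes passed for early against baseline, advanced against early and advanced against baseline. DESeq2 and limma-voom called none. For Fn1, early against baseline, the peritoneal log2 fold change exceeded that of monocytes by 0.72 ± 0.40 (adjusted p = 0.41), so the lower Fn1 of monocytes on diet was not shown to be particular to them. The spread in the aorta was too unlike the others for a shared fit, and its differences in response were not tested.

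Receptors for these ligands were described from a list of 19, which held integrins, syndecans, CD44, CD36, CD47 and the endocytic receptor LRP1. In monocytes, early against baseline, 4 of 17 tested fell, where 5.08% of all genes did, with a list median of -0.15 beside 0 over all genes. Lrp1 had 1879 ± 183 CPM early and 2878 ± 139 CPM at baseline (SD, n = 4 each, -0.59 ± 0.11, edgeR adjusted p = 0.00432). Against the same baseline libraries Lrp1 was also lower at the advanced stage (-0.72 ± 0.11, edgeR adjusted p = 0.000798). Itga4, the alpha-4 integrin that binds fibronectin and VCAM-1, had 2376 ± 125 CPM early and 3326 ± 192 CPM at baseline (-0.46 ± 0.10, edgeR adjusted p = 0.0111). Both calls held with each library left out, and neither passed in the fit of all 36 libraries. The other 2 receptors, Itgav and Cd44, kept the call in 13 and 11 of 21 alternatives. For advanced against baseline 1 of 17 fell (Lrp1), where 9.75% of all genes did. Tlr4 and Itgb1, 2 of 17, rose, where 9.23% of all genes did, with the call kept in 8 and 8 of 21. Both counts were near those shares. Tlr4 did not pass without the libraries that stood apart (adjusted p = 0.0573). In the aorta 1 of 18 receptors passed, for advanced against baseline, where 0.585% of all genes did. It was Sdc4, the fibronectin-binding syndecan-4, with 358 ± 125 CPM at the advanced stage and 55.5 ± 47.1 CPM at baseline (2.84 ± 0.53, edgeR adjusted p = 0.0109). The call was lost without baseline library 1 or 2 (adjusted p up to 0.0549), with log2 fold changes of 2.49 to 3.59 over the fits with 1 library left out.

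Of 33 other matrix glycoproteins, proteoglycans and hyaluronan synthases, 16 were abundant enough to test in the aorta, 7 in the peritoneum and 6 in monocytes. Spp1, which encodes osteopontin, had 3108 ± 1894 CPM at the advanced stage and 6.42 ± 12.1 CPM at baseline in the aorta (SD, n = 4 each). It rose, with a log2 fold change of 9.07 ± 1.51 (edgeR adjusted p = 0.00446), with each library left out as well (8.66 to 12.88, the highest without baseline library 2), but not in limma-voom (adjusted p = 0.393). The list median was 0.05, beside -0.04 over all genes. Of 16 tested 1 was higher (Spp1) and 1 lower (Stab1), where 0.585% of all genes passed in either direction. Stab1, a scavenger receptor that shares fasciclin domains with Tgfbi, gave -1.01 ± 0.21 (edgeR adjusted p = 0.0275, kept in 13 of 21 alternatives). For early against baseline 1 of 16 passed in the aorta, where 0.373% of all genes did. It was Srgn, the intracellular proteoglycan serglycin (1.30 ± 0.25, edgeR adjusted p = 0.022, kept in 16 of 21). It did not pass without the libraries that stood apart (adjusted p = 0.0606) or in limma-voom. In monocytes Srgn had 691 ± 93.5 CPM at the advanced stage and 389 ± 56.1 CPM at baseline, and rose (0.87 ± 0.12, edgeR adjusted p = 0.000445). It was 1 of 6 tested, where 9.23% of all genes rose. It also passed, higher, for advanced against early (0.62, edgeR adjusted p = 0.0191, kept in 16 of 21 alternatives), where 2.07% of all genes passed.

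Among 29 enzymes and inhibitors of matrix assembly and turnover, 2 of 18 tested (the cathepsins Ctss and Ctsk) rose in the aorta for advanced against baseline, where 0.534% of all genes did. The list median was 2.33, beside -0.04 over all genes. Of the 29 genes, 13 had no read in the aortic baseline libraries, Ctsk among them. Such genes could pass the filter on low counts only through the diet stages. Nothing is therefore read from the list median or from Ctsk in the count. The call of Ctss was lost without baseline library 1 or advanced library 3 or 4 (adjusted p up to 0.0651). That of Ctsk was lost without baseline library 1, 2 or 3, early library 3 or any advanced library (up to 0.207). In monocytes 3 of 10 rose in the same comparison, where 9.23% of all genes did, and Mmp14, a membrane-bound protease that cleaves fibronectin, had 12.4 ± 4.95 CPM at the advanced stage and 3.84 ± 2.43 CPM at baseline (1.68 ± 0.42, edgeR adjusted p = 0.0129). The other 2 were Mmp19, lost without baseline library 1, 2 or 3 or advanced library 1 (adjusted p up to 0.283), and Mmp9, lost without baseline library 2, 3 or 4, early library 1 or 4 or advanced library 1, 2 or 3 (up to 0.13, and 0.118 without the libraries that stood apart). Mmp9 did not pass in DESeq2 either. Neutrophils also make Mmp9, and their markers moved with stage as given above.

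The TGF-beta pathway, which Thbs1 can activate and Tgfbi is induced by, was described from 21 genes. In monocytes 3 of 14 tested fell for early against baseline, where 5.08% of all genes did, and 5 of 14 for advanced against baseline, where 9.75% did. The list medians were -0.23 and -0.44, beside 0 and -0.02 over all genes. Tgfb1, the ligand, had 421 ± 78.1 CPM early and 638 ± 51.1 CPM at baseline (-0.58 ± 0.13, edgeR adjusted p = 0.0127). Tgfbr2, the type II receptor, had 121 ± 10.5 CPM at the advanced stage and 176 ± 9.20 CPM at baseline (-0.51 ± 0.10, edgeR adjusted p = 0.00277). Nrros, which tethers latent TGF-beta on myeloid cells, had 204 ± 16.0 CPM at the advanced stage and 288 ± 40.3 CPM at baseline (-0.45 ± 0.11, edgeR adjusted p = 0.0105). The calls of these 3 genes held with each library left out and, like those of Lrp1, Itga4 and Mmp14, not in the fit of all 36 libraries. The others counted, Nrros and Smad4 early and Tgfb1, Smad7 and Ski at the advanced stage, kept the call in 15, 9, 11, 11 and 13 of 21 alternatives. Without the libraries that stood apart Tgfb1 and Smad7 did not pass at the advanced stage (adjusted p = 0.0957 and 0.0929).

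In peritoneal macrophages few genes of these lists passed. Of all genes 1.88% passed for early against baseline, 1.32% for advanced against early and 0.898% for advanced against baseline. For early against baseline they were the receptors Itga5 (higher) and Sdc4 (lower), of 17 tested, and Stab1 (lower), of 7 tested. The calls were kept in 8 of 21, 7 of 20 and 13 of 21 alternatives, and none passed in the fit without the libraries that stood apart. Loxl2, a lysyl oxidase that cross-links collagen, had 2.37 ± 1.46 CPM at baseline, 1.89 ± 1.54 CPM early and 20.9 ± 6.27 CPM at the advanced stage (SD, n = 4 each). It rose at the advanced stage, with log2 fold changes of 3.56 ± 0.62 against the early stage and 3.16 ± 0.50 against baseline (edgeR adjusted p = 0.02 and 0.0141). Against the early stage the call was kept in 14 of 20 alternatives and not without the libraries that stood apart (adjusted p = 0.0615). Against baseline it was kept in 15 of 20. Over the fits with 1 library left out the log2 fold changes were 3.11 to 4.19 and 2.95 to 3.76. Tlr4, higher for advanced against baseline, kept its call in 8 of 21.

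Genes whose pattern was most like that of a member were found by Pearson correlation of log2(CPM + 1) over the 36 libraries, which share the 3 populations and the difference in depth. Fn1 was most like Itgam (0.953), Wnt2 (0.928) and Car6 (0.926), and Emilin2 was most like the beta-2 integrin Itgb2 (0.971), Add3 (0.939) and Lyz2 (0.934), whose reads may be shared with its near-copy Lyz1. Prg4 was most like Selp (0.956), Itga6 (0.954) and Garnl3 (0.954), of which Selp and Garnl3 are in the list of large peritoneal macrophage markers. Thbs1 was most like Hspa12a (0.943), Ocln (0.940) and Jam2 (0.939), and Ecm1 most like Plxdc2 (0.958), App (0.957) and Cfp (0.957). The nearest genes were less close for Vcan (Gsr, 0.873, Lbr, 0.869, and Adipor1, 0.865) and for Tgfbi (Pik3cg, 0.837, Ly6e, 0.810, and Pou2f2, 0.799), the members that peritoneal macrophages did not lead.

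Over the 12 libraries of the population where each member was highest, other genes came first. In peritoneal macrophages Fn1 was most like the endocytic receptor gene Lrp1 (0.946), Nbeal2 (0.944) and Nomo1 (0.942), and Emilin2 was most like the lipoxygenase genes Alox5 (0.984) and Alox15 (0.972), with Itsn1 (0.981) between them. Thbs1 was most like Fzd1 (0.939), Phf23 (0.931) and Rpn2 (0.914), Ecm1 most like Gng12 (0.964), Lama3 (0.962) and Nek1 (0.956), and Prg4 most like Rab27a (0.949) and Tlr13 (0.942). Early libraries 1 and 2, which stood apart, are among these 12. In monocytes Vcan was most like Gda (0.957), Bst1 (0.948) and Ctsc (0.913), and Tgfbi most like Il13ra1 (0.923), Tlr8 (0.923) and Atrnl1 (0.906).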

How the data were processed

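Cells were sorted into lysis buffer, and polyA RNA was turned into Ovation SoLo libraries for paired-end sequencing, per the labels' protocols. The deposited files hold whole-number read counts per gene that the authors made with STAR and featureCounts on mm10, per the submitters' processing notes; versions, annotation and strand use are not given in the sources used here. No molecular identifiers are named, so the floor of 3 counts covers counting error only, and genes with near-identical or antisense partners are uncertain. CPM was computed from the deposited counts over each library's total.

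The 7 genes, the marker and pathway lists and the libraries that stood apart were chosen with earlier results of these data known. Stages were compared within each population's 12 libraries by edgeR 4.0.16 (quasi-likelihood, TMM, filterByExpr, two-sided, adjusted p under 0.05 over all genes; R 4.3.3), and responses of peritoneal macrophages and monocytes in their 24. The fits were tested on simulated counts. Alternatives were RLE factors, no filter, DESeq2 1.42.0, limma-voom 3.58.1, a replicate block, counts thinned to 942899 reads, Rn45s left out, all 36 libraries in 1 fit, and libraries left out. All members were named in every comparison. Of list genes, up to 4 per list and comparison by smallest p were named, mainly those that kept the call with each library left out, a choice made after their values were seen. For likeness, genes had a mean of at least 20 CPM in 1 group, and up to 3 were named per member and set of libraries (1 is not reported here). Promoter windows came from RefSeq (GRCm38.p6).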

Additional observations from a re-analysis of the deposited data

Results flagged for a closer look

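8 of the 63 sets of 4 libraries (7 genes in 9 groups) held a library far from the other 3, by Dixon's criterion for the gap to the nearest value over the range, which chance meets in about 1 in 20 sets. Monocyte advanced library 1 was the high one for 4 genes: Vcan with 1616 CPM, Tgfbi with 1746 CPM, Ecm1 with 39.0 CPM and Prg4 with 1.32 CPM. Ecm1 was also high in monocyte baseline library 4, with 27.0 CPM. In the aorta Vcan was high in baseline library 4, with 50.5 CPM, a library that stood apart from its group, and Prg4 in early library 2, with 12.2 CPM. Prg4 in monocyte early library 2, with 0.472 CPM, was the 1 library of its group with any read. The 2 monocyte values of Prg4 are 2 and 1 counts, under the floor of 3 counts, with the other 3 libraries of each set at 0, so they meet the criterion by construction and say nothing about those libraries.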

How the results depend on the processing

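The number of the 7 genes that passed in the aorta for early against baseline, 1 in edgeR, was 3 without the filter on low counts, 3 in DESeq2 and 3 in the fit of all 36 libraries, each time Fn1, Thbs1 and Prg4. For advanced against early, 1 in edgeR, it was 2 without the filter, 2 in DESeq2, 2 in the fit of all 36 libraries (Fn1 and Prg4) and 3 in limma-voom (Fn1, Thbs1 and Prg4). For advanced against baseline, 1 in edgeR, it was 2 in limma-voom. Monocyte counts of 1 for early and for advanced against baseline became 0 in the fit of all 36 libraries, and the 0 for advanced against early became 1 (Vcan) without the filter, in DESeq2 and at equal depth. Peritoneal counts of 0, 0 and 0 became 1, 1 and 2 without the libraries that stood apart, and 1 and 2 for the advanced comparisons in limma-voom. With each library left out in turn the counts were 1 to 2, 0 to 1 and 1 to 1 in the aorta, 0 to 2, 0 to 1 and 0 to 1 in monocytes, and 0 to 1, 0 to 0 and 0 to 0 in the peritoneum, for early against baseline, advanced against early and advanced against baseline. On TMM-scaled totals 1 member in place of 2 was apart between aorta and monocytes, and 5 in place of 6 between peritoneum and monocytes (without Vcan in both). The cause of these shifts was not tested.

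A replicate block changed none of the 81 member results, so aortic Thbs1, advanced against baseline, kept 3.08 ± 0.44 (adjusted p = 0.00106) under it. Of the 32 calls of list genes it ended 14: Stab1 and Ctsk in the aorta at the advanced stage, Cd44, Smad4 and Nrros early and Tgfb1, Ski, Mmp9, Mmp19, Tlr4 and Itgb1 advanced in monocytes, and Sdc4 and Stab1 early and Tlr4 advanced in the peritoneum, each against baseline. Libraries of the same number did not vary together (median correlation of their deviations from the group means -0.01 in the aorta, -0.1 in the peritoneum and -0.03 in monocytes), so the numbers were not taken to pair them. No member changed sign under an alternative in which it, or the reported value, passed. Counts over all genes moved more: 37 (12 to 120 with 1 library left out, 28 to 2113 in other alternatives) in the aorta for early against baseline, 4 (0 to 13 with 1 library left out, 4 to 320 in other alternatives) for advanced against early and 58 (32 to 154 with 1 library left out, 50 to 1816 in other alternatives) for advanced against baseline. In monocytes they were 1024 (548 to 1268 with 1 library left out, 17 to 1423 in other alternatives), 196 (34 to 357 with 1 library left out, 0 to 435 in other alternatives) and 1797 (1182 to 1915 with 1 library left out, 33 to 2180 in other alternatives), and in the peritoneum 180 (4 to 625 with 1 library left out, 43 to 683 in other alternatives), 126 (5 to 419 with 1 library left out, 39 to 542 in other alternatives) and 86 (3 to 406 with 1 library left out, 2 to 1526 in other alternatives). For the differences in response they were 288 (49 to 526 with 1 library left out, 25 to 519 in other alternatives), 129 (18 to 340 with 1 library left out, 25 to 381 in other alternatives) and 238 (69 to 318 with 1 library left out, 66 to 503 in other alternatives). Depth limits the scarce transcripts: 3 counts correspond to 0.203 to 3.18 CPM, which bears on Prg4 in monocytes and on Vcan and Prg4 in the aorta.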

Other observations

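Within populations the 7 transcripts varied together to different degrees. Pearson's r of log2(CPM + 1), with Spearman's rho beside it, is given as a description over 12 libraries, which share the difference in depth between baseline and the diet stages. In peritoneal macrophages r was 0.89 (rho 0.88) between Ecm1 and Prg4 and 0.90 (rho 0.86) between Thbs1 and Vcan, pairs in which early libraries 1 and 2 gave the low points. In monocytes it was 0.86 (rho 0.80) between Fn1 and Emilin2 and 0.86 (rho 0.54) between Vcan and Tgfbi, where advanced library 1 was the highest of both. In aortic macrophages it was 0.72 (rho 0.58) between Fn1 and Prg4 and -0.21 (rho -0.08) between Fn1 and Thbs1.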
